A study of Mus musculus with 60 samples.

Results

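Peaks of open and acetylated chromatin were followed at 6 mouse genes for adhesion and surface receptors, Tnfrsf12a, Plaur, Flrt3, Chl1, L1cam and Cd44, in dorsal root ganglia 24 hours after nerve or spinal surgery. The 6 genes were listed by name, out of 21883 protein-coding genes of the RefSeq table of GRCm38, and every peak that touched a gene body or the 10 kb on either side was assigned to the gene. The group was selected on its ATAC peak counts after sciatic axotomy, which were higher at Tnfrsf12a and Flrt3, so ATAC counts in that comparison describe the choice and test nothing. RNA was not measured in these files, so whether the genes were induced is not shown by any value here.

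The ganglia, clusters of sensory neuron cell bodies and their glia beside the spinal cord, were taken at levels L4 to L6 from mice aged 6 to 8 weeks. The mice had a sciatic nerve axotomy (SNA), sham surgery on the sciatic nerve (Sham), an axotomy of the spinal dorsal columns (DCA) or a laminectomy, which opens the vertebra without cutting axons (Lam). SNA was set against Sham and DCA against Lam, and Lam against Sham gave the difference between the surgeries without axotomy. ATAC-seq, in which a transposase cuts and tags open chromatin, was made from 3 samples of 1 mouse each per surgery. Chromatin immunoprecipitation for H3K9ac and H3K27ac, acetyl marks of active promoters and enhancers, and for H3K27me3, a mark of repressed chromatin, used 2 samples of 10 pooled mice each. The 60 samples (24 immunoprecipitations, 24 inputs and 12 ATAC) were deposited as 16 peak lists, 1 per assay and surgery, each pooled over its replicates. No value below therefore has a replicate error, and no p-value between surgeries could be made. Whole ganglia were used, so more cells of a type and more signal per cell cannot be told apart.

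The genes act at the cell surface. Tnfrsf12a is the receptor for the cytokine TWEAK and signals through TRAF proteins to NF-kappaB. Plaur is the lipid-anchored receptor that holds urokinase, an activator of plasminogen, at the cell surface. Flrt3 is a membrane protein with leucine-rich repeats that binds latrophilins and Unc5 receptors. Chl1 and L1cam are immunoglobulin-type adhesion molecules of axons that bind ankyrins inside the cell. Cd44 is the main receptor for hyaluronan, a sugar polymer of the extracellular matrix. Genes of this kind are known for expression in sensory and other neurons, glia or immune cells that grow, migrate or respond to nerve damage.

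Whole lists differed in size. The ATAC lists held between 153556 and 174605 peaks and the H3K27me3 lists between 90011 and 154055. The H3K9ac lists held 50332 peaks after Sham, 74652 after SNA, 50667 after Lam and 89647 after DCA, and the H3K27ac lists 43803, 75824, 67311 and 46489 in the same order. All 8 sensory neuron markers had an ATAC peak at a gene end in each of the 4 lists. For satellite glia and Schwann cells 4 to 6 of 8 markers had one, and for macrophages 3 or 4 of 8. In the acetylation lists, however, at most 2 of the 8 sensory neuron markers had a peak at an end. There 4 to 7 of 8 markers of satellite glia and Schwann cells and at most 3 of 8 macrophage markers did. The part of this difference in the results below was not tested. Between 0 and 3 of 6 markers of liver, muscle and intestine had an acetylation peak at an end, and 4 or 5 of 6 an ATAC peak.

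The sequences directly upstream of the start are shown for the 4 genes that held a searched motif there. All are from RefSeq (GRCm38.p6), run 5′ to 3′ toward the start, and have the searched motifs in capitals. Positions are counted from the start at 0, negative upstream. They are Tnfrsf12a (minus strand, chr17:23677450-23677699), Plaur (plus strand, chr7:24462233-24462482), Flrt3 (minus strand, chr2:140671477-140671726) and L1cam (minus strand, chrX:73880835-73881084).
Tnfrsf12a: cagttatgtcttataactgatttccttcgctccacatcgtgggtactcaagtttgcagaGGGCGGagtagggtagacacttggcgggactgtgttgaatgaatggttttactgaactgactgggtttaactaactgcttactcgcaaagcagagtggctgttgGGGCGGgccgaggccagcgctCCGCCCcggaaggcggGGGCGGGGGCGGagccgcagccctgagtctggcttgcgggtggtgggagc
Plaur: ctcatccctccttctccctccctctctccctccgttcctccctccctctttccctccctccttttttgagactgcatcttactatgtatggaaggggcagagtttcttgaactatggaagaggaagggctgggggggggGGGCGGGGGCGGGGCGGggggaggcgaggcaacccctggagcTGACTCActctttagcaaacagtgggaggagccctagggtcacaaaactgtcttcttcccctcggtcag
Flrt3: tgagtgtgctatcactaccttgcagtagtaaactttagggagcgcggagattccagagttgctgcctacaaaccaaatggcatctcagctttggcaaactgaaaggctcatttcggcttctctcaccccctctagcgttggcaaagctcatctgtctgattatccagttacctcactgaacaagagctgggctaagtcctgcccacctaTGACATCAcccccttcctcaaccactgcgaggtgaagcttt
L1cam: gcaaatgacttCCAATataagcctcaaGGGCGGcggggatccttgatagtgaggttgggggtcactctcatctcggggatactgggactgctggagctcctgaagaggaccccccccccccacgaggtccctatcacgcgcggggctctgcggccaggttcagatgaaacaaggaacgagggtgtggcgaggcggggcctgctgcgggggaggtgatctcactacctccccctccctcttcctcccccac

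Both strands of these 250 bases were searched for 6 motifs. The AP-1 site TGANTCA, bound by Jun and Fos proteins, occurred in 6.13% of 21262 such windows of all genes, and the CRE-like site TGACNTCA in 7.25%. The STAT site TTCNNNGAA was in 6.58%, the GC box GGGCGG in 42.6%, the CCAAT box CCAAT in 35.4% and the TATA box TATAAA in 11.6%. Tnfrsf12a held 5 GC boxes, 4 of them between −87 and −39. Plaur held 1 AP-1 site, TGACTCA, from −69 to −63, and 3 GC boxes, of which the pair nearest the start shared a base. In Flrt3 the match was 1 CRE-like site, TGACATCA, from −41 to −34. The L1cam window held 1 GC box and 1 CCAAT box, and the windows of Chl1 and Cd44 held none of the 6 motifs. GC content of the 6 windows ran from 50.0% in Flrt3 to 63.2% in L1cam, against a median of 55.6% over all genes. A match describes letters only and is not a measured binding site.

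Tnfrsf12a, the TWEAK receptor, is a short gene of 2.0 kb on the minus strand of chromosome 17 (23675445 to 23677449), crowded by the starts of Cldn6, Hcfc1r1, Thoc6 and other genes. Its window held 3 ATAC peaks after Sham, 9 after SNA, 6 after Lam and 6 after DCA. Of the 9 SNA peaks, 5 overlapped no Sham peak and 4 overlapped no peak of any other list, whereas the 3 Sham peaks all overlapped an SNA peak. The covered length differed less than the count, with 3483 bp after Sham, 4239 bp after SNA, 4110 bp after Lam and 4827 bp after DCA.

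The ATAC peaks of Tnfrsf12a included 1 at its start in SNA, from −144 to 183 (chr17:23677266-23677593), where 61 reads stood at the summit over a background of 32.9. Its deposited fold enrichment was 1.83 and its −log10 p was 5.41, which placed it above 57.7% of the peaks of that list. This peak covered the 4 GC boxes nearest the start and overlapped H3K9ac and H3K27ac peaks of SNA. A further SNA peak lay inside the gene, from 1382 to 1716, with 66 reads over 31.8. DCA had a peak within 1 kb of the start, from 334 to 1023, with 65 reads over 34.1, and it did not overlap the SNA peak. Sham and Lam had none within 1 kb. The strongest peak of the window in every list lay between 2745 and 4099 bp downstream, at the starts of Hcfc1r1 and Thoc6, with 99 summit reads after Sham, 102 after SNA, 89 after Lam and 89 after DCA. In DCA a peak from 8029 to 8505 (63 reads over 31.2) was the strongest of 3 with no Lam peak. The neighbouring promoter was thus open in all lists. Only SNA had an ATAC peak over the start of Tnfrsf12a itself, a value of the comparison that chose the genes.

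At the start of Tnfrsf12a, H3K9ac was listed after every surgery and H3K27ac in SNA and Lam only. H3K9ac peaks numbered 3 after Sham, 2 after SNA, 3 after Lam and 3 after DCA, and each list had 1 at the start. The fold enrichment of this start peak was 4.61 after Sham, 3.83 after SNA, 2.64 after Lam and 3.31 after DCA, each relative to its own list. H3K27ac peaks numbered 2, 3, 3 and 2 in the same order and covered 1171, 3380, 2368 and 911 bp, which differed more than the ATAC lengths. Most of this length lay at the starts of Hcfc1r1 and Thoc6, with 808 bp in Sham, 2550 bp in SNA, 837 and 883 bp in Lam and all of it in DCA. Peaks of H3K27ac within 1 kb of the start were present in SNA, as 2 peaks, and in Lam, as 1, and absent from Sham and DCA. The Lam peak (438 to 1085) had 23 reads over 3.08 and the SNA peaks 19 over 6.59 and 16 over 3.10, so the H3K27ac start signal was also present after a control surgery.

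**Figure D1:**
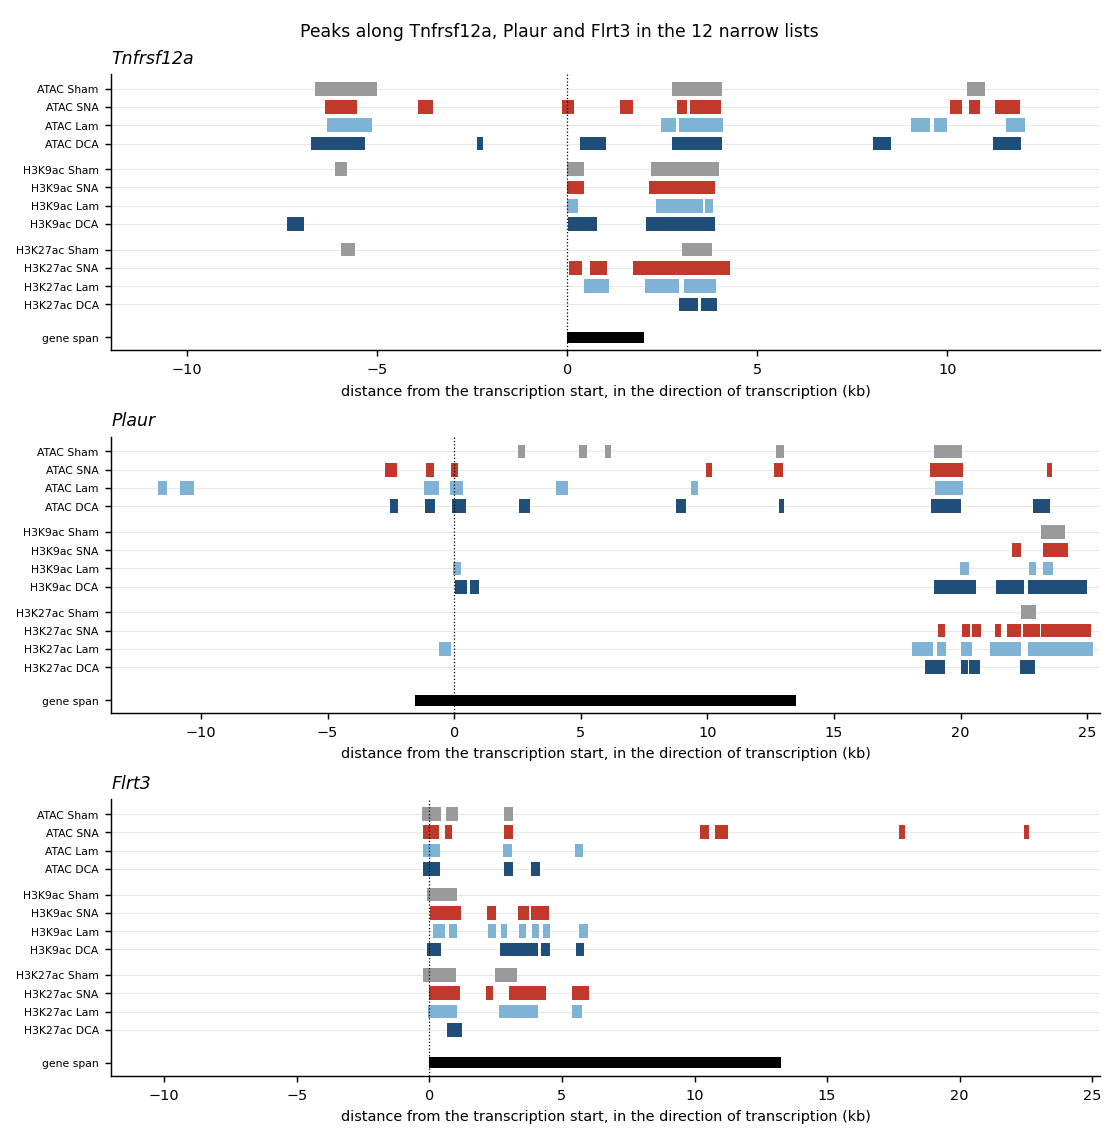
Peaks along Tnfrsf12a, Plaur and Flrt3 in the ATAC, H3K9ac and H3K27ac lists, by distance in kb from the transcription start (dotted line), with the gene span in black and colours for the 4 surgeries. Each block is 1 peak of a pooled list. Flrt3 holds 4 ATAC peaks seen only in SNA, all past 10 kb, while the acetylation peaks of Plaur lie mostly past its end, near the start of Cadm4 at about 20 kb.

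Plaur, the urokinase receptor, spans 15.0 kb of the plus strand of chromosome 7 (24460937 to 24475970), and the start of its neighbour Cadm4, an immunoglobulin-type adhesion gene, falls in its downstream flank. Its window held 5 ATAC peaks after Sham, 7 after SNA, 7 after Lam and 8 after DCA. At the start itself, ATAC peaks were present in SNA (−115 to 129, 46 reads over 23.6), Lam (−149 to 338, 44 over 21.7) and DCA (−72 to 453, 44 over 23.9) and absent from Sham. All 3 peaks covered the AP-1 match at −69 to −63. A peak just upstream followed the same pattern, with 62 reads over 23.5 in SNA (−1128 to −787), 47 over 21.3 in Lam and 42 over 23.9 in DCA. Its −log10 p of 10.9 in SNA was above that of 90.8% of the list. Since Lam had no axotomy, the Sham list alone lacked these peaks.

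Acetylation peaks at the start of Plaur were listed in Lam and DCA and not in SNA. H3K9ac peaks there were present in Lam (26 reads over 8.94) and DCA (31 over 6.97) and absent from Sham and SNA, and H3K27ac was present in Lam only (13 reads over 4.04). H3K27ac peaks in the whole window numbered 1 after Sham, 7 after SNA, 6 after Lam and 4 after DCA. All 7 SNA peaks lay between 19096 and 25129 bp from the start, beyond the end of Plaur, and 3 of them were at the start of Cadm4. With the gene body alone, SNA and Sham did not differ in the number of H3K27ac peaks at Plaur. The strongest of the 7 (23192 to 25129) had a fold enrichment of 10.4 and 45 reads over 3.12, above 99.6% of its list. H3K9ac in the window numbered 1, 2, 4 and 5, and the DCA peak at the start of Cadm4 had a fold enrichment of 7.58, above 99.4% of its list.

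Flrt3, the latrophilin ligand, spans 13.3 kb of the minus strand of chromosome 2 (140658198 to 140671476) within the much longer gene Macrod2. ATAC peaks numbered 3 after Sham, 7 after SNA, 3 after Lam and 3 after DCA. A peak at the start was present in all 4 lists, with 89 summit reads after Sham, 96 after SNA, 67 after Lam and 74 after DCA over backgrounds of 17.0 to 18.4. A peak about 3 kb into the gene was also in all 4, with 51, 50, 45 and 58 reads. The 4 additional SNA peaks were found in no other list and lay at 10206 to 10556, 10762 to 11262, 17725 to 17952 and 22408 to 22633, the last pair beyond the end of the gene. They were weaker, with 33 to 40 reads over 17.3 and −log10 p between 3.61 and 6.07. None overlapped a peak of H3K9ac or H3K27ac. The CRE-like match at −41 to −34 lay inside the start peak of all 4 ATAC lists.

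In H3K9ac, Flrt3 held 1 peak after Sham, 4 after SNA, 8 after Lam and 4 after DCA, so the highest count was in a control. The gain of 7 peaks from Sham to Lam was reached by 0.772% of all genes and 0.0797% of the 7527 genes of a like span, between 0.5 and 2.0 times as long, and the loss of 4 from Lam to DCA by 0.201% and 0.292%. Several of the 8 Lam peaks were short pieces of a stretch that the DCA list covered with fewer, longer peaks. The covered length was 1126 bp after Sham, 2599 bp after SNA, 2449 bp after Lam and 2611 bp after DCA. By length, the 3 lists other than Sham therefore lay close together. All 4 DCA peaks overlapped a Lam peak, and 2 of the 8 Lam peaks overlapped no DCA peak. H3K27ac peaks at Flrt3 numbered 2, 4, 3 and 1, with covered lengths of 2080, 3471, 2900 and 565 bp.

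Chl1, an adhesion molecule close to L1, is the longest of the 6 genes, at 222 kb on the plus strand of chromosome 6 (103510584 to 103733038). ATAC peaks numbered 6 after Sham, 3 after SNA, 7 after Lam and 7 after DCA, the lowest count being that of sciatic axotomy. At the start the order was different. The SNA start peak (−133 to 1695) had 71 summit reads over 17.3 and a −log10 p of 22.1, against 49 reads over 16.2 in Sham, 49 over 17.2 in Lam and 41 over 18.4 in DCA. The start of Chl1 thus had the most summit reads in SNA although its window had the fewest peaks there. DCA alone listed an upstream peak, from −3224 to −2808, with 46 reads over 18.4.

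H3K27ac at Chl1 numbered 3 peaks after Sham, 10 after SNA, 9 after Lam and 4 after DCA. The start was acetylated in SNA (−657 to 1596, 33 reads over 5.27), Lam (−247 to 1712, 19 over 3.09) and DCA (as 2 peaks) and had no H3K27ac peak in Sham. Of the 10 SNA peaks, 9 overlapped no Sham peak, and most lay between 48033 and 56886 bp or between 83640 and 84978 bp into the gene, where Lam also had peaks. In both controls the strongest H3K27ac peak of the gene lay from 35824 to 36236 bp, with a fold enrichment of 9.69 in Sham, and 8.01 in Lam at the same place. It was listed in neither axotomy and overlapped no ATAC peak of the same surgery. When −log10 q had to reach 5, Chl1 held 2 fewer H3K27ac peaks in SNA than in Sham, and most of its SNA peaks ranked low in their list. Because q describes peaks within their own list, that limit need not be equally strict in both lists. With lists of equal size Chl1 held 1 fewer. H3K9ac numbered 5, 4, 5 and 6, with peaks at the start and between 47797 and 48378 bp in all 4 lists.

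L1cam, the founding member of the L1 family, spans 27.1 kb of the minus strand of the X chromosome (73853778 to 73880838) and had the fewest peaks. Distances are from the more upstream of its 2 starts. Its ATAC peaks numbered 3 after Sham, 2 after SNA, 5 after Lam and 1 after DCA, all weak, with −log10 p between 2.40 and 4.95. A start peak was present in SNA (−597 to 46, 37 reads over 17.3) and in Lam (−169 to 152, 35 over 17.2) and absent from Sham and DCA. In each acetylation mark, L1cam had 1 peak in SNA, 1 in DCA and none in Sham or Lam. The SNA peaks of H3K9ac (−611 to −397, 24 reads over 5.19) and H3K27ac (−476 to −263, 14 over 3.08) overlapped each other and the ATAC start peak of SNA. The DCA peaks lay inside the gene, from 58 to 442 for H3K9ac and from 485 to 867 for H3K27ac, with 15 reads over 5.66 and 10 over 2.11. Acetylation within 1 kb of the start of L1cam was thus listed after both axotomies and in neither control, at places that did not overlap between SNA and DCA. How many of all genes had this pattern was not counted. A gain of at least 1 peak in the window was found in 38.9% of all genes for H3K9ac and 43.9% for H3K27ac in SNA. In DCA the shares were 47.6% and 12.1%. With lists of equal size the SNA peak of H3K27ac and the DCA peak of H3K9ac were no longer counted, so that each mark was listed after 1 axotomy. These 4 peaks were weak, since they ranked above 36.0% and 18.1% of the H3K9ac and H3K27ac peaks of SNA and above 1.22% and 12.5% of those of DCA.

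Cd44, the hyaluronan receptor, spans 90.5 kb of the minus strand of chromosome 2 (102811141 to 102901669). It had 7 ATAC peaks after Sham, 10 after SNA, 5 after Lam and 8 after DCA, more in each axotomy list than in its control. Of genes with a span like that of Cd44, 37.0% gained at least 3 ATAC peaks in SNA and 21.2% at least 3 in DCA. The start of Cd44 was open in all 4 lists, with 56 summit reads after Sham, 59 after SNA, 42 after Lam and 61 after DCA over backgrounds of 16.2 to 18.4. Of the 10 SNA peaks, 5 were in no other list. The strongest of these, 63095 to 63552 bp into the gene (chr2:102838113-102838570), had 55 reads over 17.3, a fold enrichment of 3.06 and a −log10 p of 12.9, above 92.6% of its list. No acetylation peak overlapped it. A region from 18745 to 19993 bp into the gene was open in all 4 lists, and H3K9ac there was listed in Sham, SNA and DCA and H3K27ac in SNA, Lam and DCA.

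H3K27ac at Cd44 numbered 4 peaks after Sham, 8 after SNA, 8 after Lam and 4 after DCA. The start was covered in all 4 lists, with fold enrichments of 3.98 after Sham, 4.04 after SNA (the stronger of 2 peaks), 7.36 after Lam and 3.33 after DCA, each within its own list. H3K9ac numbered 4, 5, 4 and 6, again with a start peak in every list. At this gene SNA and Lam, an axotomy and a control, had the same H3K27ac count. In lists of equal size Cd44 had 1 fewer H3K27ac peak in SNA than in Sham and 2 fewer in DCA than in Lam.

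**Figure D2:**
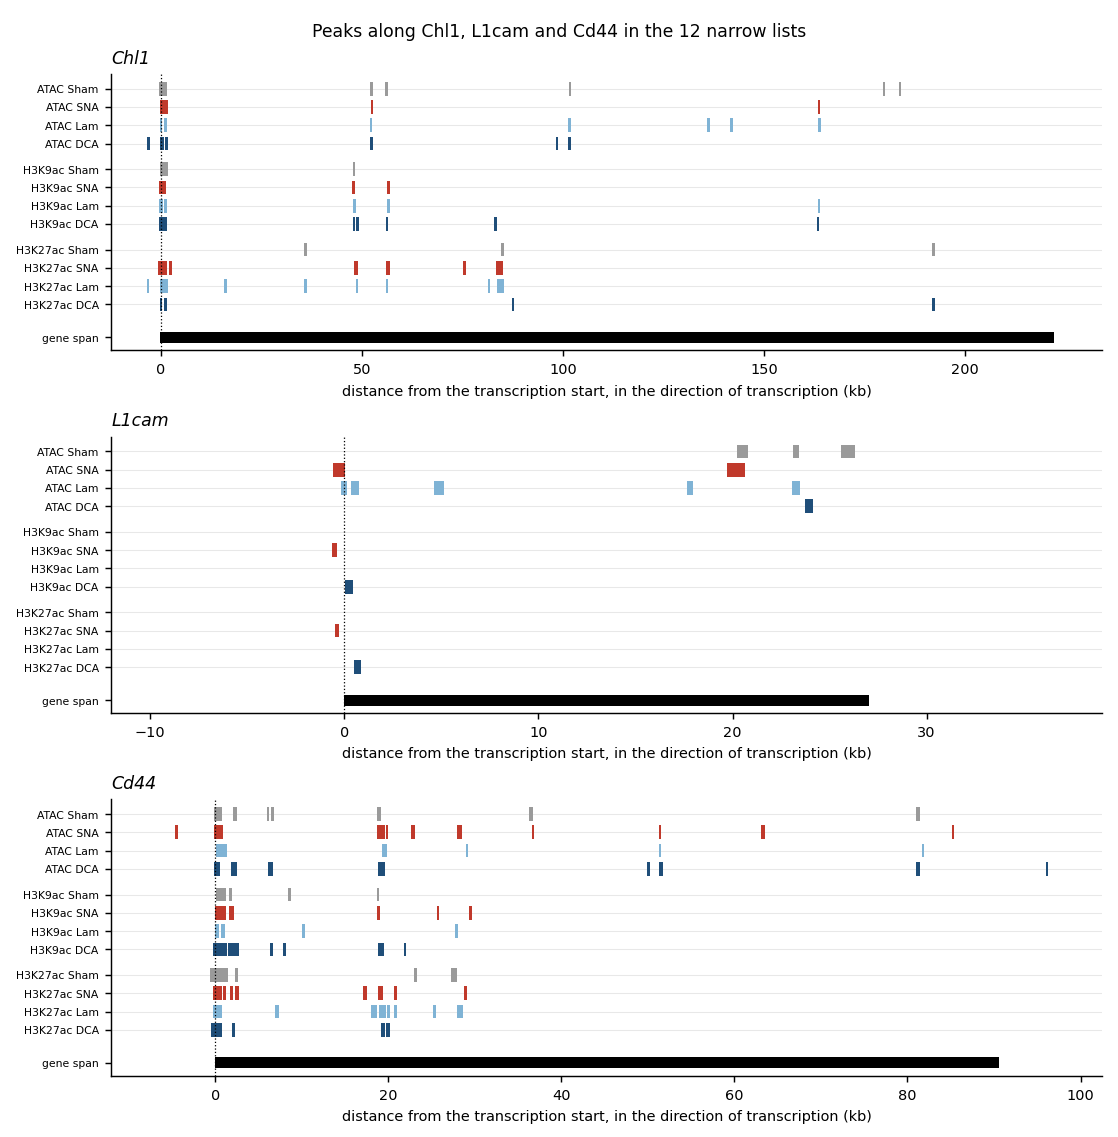
Peaks along Chl1, L1cam and Cd44 in the ATAC, H3K9ac and H3K27ac lists, by distance in kb from the transcription start (dotted line), with the gene span in black and colours for the 4 surgeries. The narrowest peaks are drawn wider than they are so that they can be seen. Acetylation within 1 kb of the start of L1cam appears in SNA and DCA only, as weak peaks at places that do not overlap between these lists. The SNA track of Cd44 shows an ATAC peak at about 63 kb that no other list has.

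H3K27me3 peaks of the 6 genes numbered 17 after Sham, 15 after SNA, 16 after Lam and 2 after DCA. None of the 50 had a q of at most 0.05. The largest −log10 q was 0.191 and the largest fold enrichment 1.69, so none of them reached that limit. L1cam had no H3K27me3 peak in any list, which only says that none was listed. Over the whole lists 1.31% of H3K27me3 peaks after Sham, 0.155% after SNA, 0.595% after Lam and 0.0478% after DCA reached a q of 0.05. The numbers of this mark are given but not read further.

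**Figure D3:**
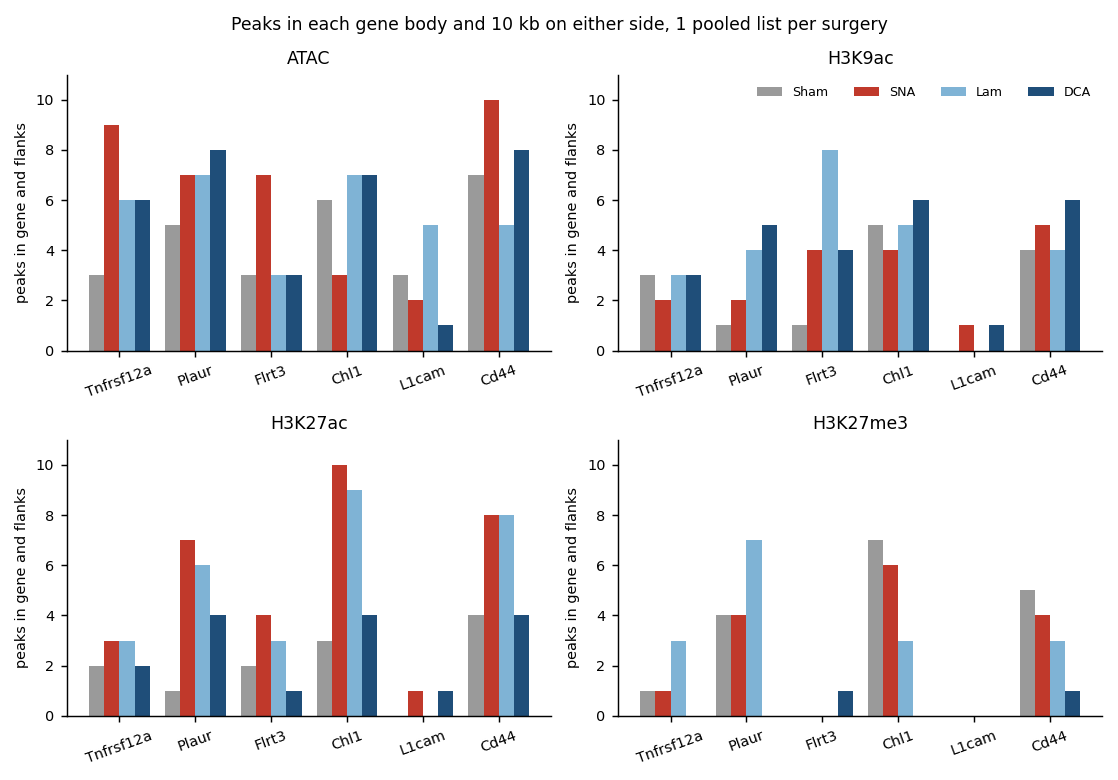
Number of peaks in each of the 6 genes and 10 kb on either side (vertical axis), by gene (horizontal axis) and surgery (colours), with 1 panel per assay. Each bar is 1 pooled list and has no error. The 9 and 7 ATAC peaks of Tnfrsf12a and Flrt3 in SNA stand above the other 3 lists, while the tall H3K27ac bars of Plaur, Chl1 and Cd44 come in pairs, SNA and Lam. When −log10 q had to reach 5, neither Tnfrsf12a nor Flrt3 had more ATAC peaks in SNA than in Sham.

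After sciatic axotomy 4 of the 6 genes (Tnfrsf12a, Plaur, Flrt3 and Cd44) had more ATAC peaks than in Sham and 2 (Chl1 and L1cam) had fewer. Over all genes 46.8% had more and 24.1% fewer, and because the choice of genes used this contrast nothing is read from the count. The genes' SNA peaks made up 58.5% of the 65 peaks of both lists, against 53.8% over all genes. SNA had 6 more ATAC peaks than Sham at Tnfrsf12a and 4 more at Flrt3. In the gene body alone these differences were 2 and 2, and with lists of equal size 4 and 4. Both were 0 when −log10 q had to reach 5, a limit that need not be equally strict in both lists. H3K9ac peaks were more in 4 and fewer in 2 genes, as in 38.9% and 11.4% of all genes, with an SNA share of 56.2% (exact Clopper-Pearson 95% interval 37.7% to 73.6%, counting error only) against 58.6%. The H3K9ac share with lists of equal size was 48.1%, with 3 genes more and 3 fewer.

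H3K27ac had more peaks in SNA than in Sham in all 6 genes, against 43.9% of all genes with more and 12.7% with fewer. The totals were 12 peaks in Sham and 33 in SNA, an SNA share of 73.3% (58.1% to 85.4%), against 63.1% over all genes. The peaks covered 8471 bp in Sham and 20223 bp in SNA. The whole lists held 43803 peaks of median width 524 bp in Sham and 75824 of 428 bp in SNA, and covered length was not measured over all genes. Lam against Sham, with no axotomy, gave nearly the same picture, with more in 5 genes and none fewer (all genes 41.6% and 11.1%), 29 peaks and a share of 70.7% (54.5% to 83.9%) against 60.5%. The Lam peaks covered 21614 bp, in a list of 67311 peaks of median width 558 bp. Lam, a surgery without axotomy, thus also held more peaks at these genes than Sham. The parts of axotomy and of list size in these differences were not tested. When −log10 q had to reach 5, the SNA share was 40.0%, which turned the direction, and with lists limited to the same number of peaks it was 55.6%. The Lam share was 64.0% and 62.5% under these limits and kept its direction. Because q describes peaks within their own list, the q limit need not be equally strict in each list. The 2 comparisons share the Sham list, and their difference was not tested.

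After dorsal column axotomy, ATAC peaks were more than in Lam in 2 genes (Plaur and Cd44), fewer in L1cam and equal in 3, where 35.1% of all genes had more and 34.7% fewer. The totals were 33 in each list, a share of 50.0% (37.4% to 62.6%) against 49.9% over all genes. In H3K9ac, 4 genes had more and Flrt3 fewer (all genes 47.6% and 8.63%), with 25 peaks in DCA, 24 in Lam and a share of 51.0% (36.3% to 65.6%) against 62.8%. By covered length the difference was larger, 20335 bp in DCA and 10184 bp in Lam. The whole lists also differed, with 89647 peaks of median width 532 bp in DCA and 50667 of 388 bp in Lam. Covered length was not measured over all genes. The direction of the counts turned with lists of equal size, with more in 1 gene, fewer in 4, 16 peaks in DCA, 24 in Lam and a share of 40.0%. In H3K27ac only L1cam had more and 5 genes had fewer (all genes 12.1% and 38.9%), with 16 peaks in DCA, 29 in Lam and a share of 35.6% (21.9% to 51.2%) against 41.7%. H3K27ac at the genes thus ran opposite in the 2 injuries, as it did in the sizes of the whole lists. With lists of equal size 2 genes had more and 2 fewer in SNA than in Sham, and 1 more and 4 fewer in DCA than in Lam.

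Lam against Sham gave more ATAC peaks in 4 genes and fewer in Cd44 (all genes 41.4% and 29.4%), with a share of 55.0% (41.6% to 67.9%) against 52.2%. H3K9ac peaks were more in Plaur and Flrt3 and fewer in none (25.1% and 23.0%), with a share of 63.2% (46.0% to 78.2%) against 49.7%. For H3K27me3, none of the 6 genes had more peaks in SNA than in Sham and 2 had fewer (32.5% and 33.8% of all genes). In DCA against Lam 1 gene had more and 4 fewer (10.3% and 61.5%), and in Lam against Sham 2 had more and 2 fewer (48.3% and 21.3%). The shares were 46.9% (29.1% to 65.3%) against 51.2%, 11.1% (1.38% to 34.7%) against 31.6% and 48.5% (30.8% to 66.5%) against 57.6%.

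**Figure D4:**
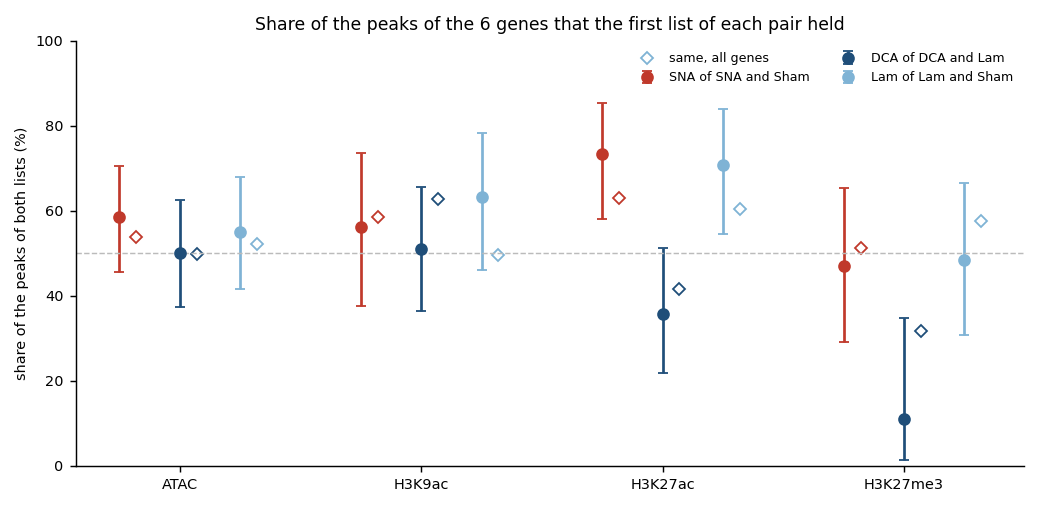
Share in percent (vertical axis) of the peaks of the 6 genes that the first list of each pair held, by assay, as filled points with exact 95% intervals that cover counting error only. Open diamonds give the same share over all genes, and the dashed line marks 50%. The ATAC share of SNA against Sham comes from the comparison that chose the genes and is a description. For H3K27ac the SNA share of 73.3% and the Lam share of 70.7%, both against Sham, nearly coincide.

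Starts of the 6 genes were compared with all 17491 genes whose start is in the sequence table. An ATAC peak within 1 kb of a start was listed for 3 of the 6 genes after Sham (68.2% of all genes), 6 after SNA (70.3%), 5 after Lam (68.5%) and 5 after DCA (69.8%). The genes without one in Sham were Tnfrsf12a, Plaur and L1cam. For H3K9ac the numbers were 4 after Sham (50.4%), 5 after SNA (51.9%), 5 after Lam (51.6%) and 6 after DCA (59.9%). For H3K27ac they were 2 after Sham (40.5%), 5 after SNA (52.1%), 5 after Lam (51.5%) and 4 after DCA (43.6%), and Flrt3 and Cd44 were the pair present in all. For H3K27me3 only Chl1 had a start peak, in Sham (19.6%) and Lam (22.1%) but not in SNA (14.8%) or DCA (7.13%). SNA was the only ATAC list with a start peak at all 6 genes, and the choice of genes had used that list.

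Of the SNA ATAC peaks of the 6 genes, 23 of 38 (60.5%) overlapped no Sham peak, against 59.6% of all SNA peaks, which describes the comparison that chose the genes. The share was 44.4% against 49.5% for H3K9ac and 72.7% against 65.3% for H3K27ac. Lam against Sham gave 63.6% against 59.4% for ATAC, 54.2% against 40.8% for H3K9ac and 69.0% against 54.4% for H3K27ac. DCA against Lam gave 54.5% against 57.9%, 48.0% against 61.8% and 25.0% against 27.9%. When the 4 lists of an assay were merged, 9 of 72 ATAC regions of the genes were in all 4 lists (12.5%, against 10.0% of all regions) and 44 were in 1 list (61.1%, against 59.7%). For H3K9ac 7 of 33 regions were in all 4 (21.2%, against 18.8%) and for H3K27ac 4 of 41 (9.76%, against 13.6%). These shares were near those of all regions. The ATAC regions common to all lists included the starts of Flrt3, Chl1 and Cd44 and the starts of the neighbours Hcfc1r1, Thoc6 and Cadm4.

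The share of ATAC peaks that overlapped an acetyl peak of the same surgery was set beside that of all ATAC peaks, which also include peaks far from genes. For H3K9ac the shares at the 6 genes were 25.9% after Sham, 26.3% after SNA, 33.3% after Lam and 45.5% after DCA, against 14.1%, 16.9%, 13.0% and 20.6% of all ATAC peaks. For H3K27ac they were 25.9%, 31.6%, 36.4% and 24.2%, against 10.7%, 15.1%, 15.8% and 10.8%. The share at the genes was the larger in each of these 8 pairs, with 27 to 38 ATAC peaks behind each. Some of the overlapping peaks lay at starts of neighbours, such as the only one of Tnfrsf12a with H3K27ac in DCA, at Hcfc1r1 and Thoc6. The windows of other genes were not compared, so the excess is not read as particular to the 6 genes. The overlap with H3K27me3 was 11.1%, 2.63%, 18.2% and 0.0%, against 15.8%, 13.1%, 23.1% and 5.37%.

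**Figure D5:**
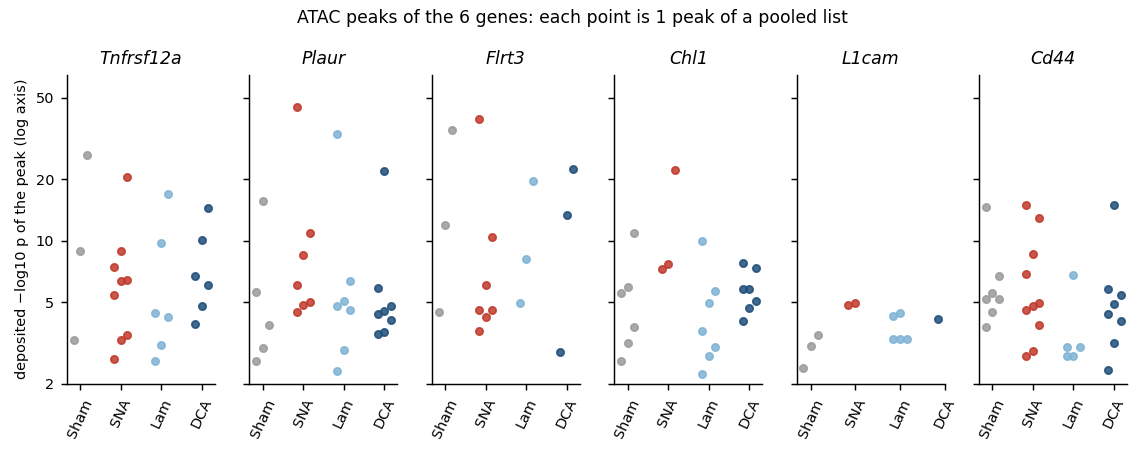
Deposited −log10 p (log axis) of every ATAC peak of the 6 genes, by gene and surgery, 1 point per peak of a pooled list. Values rank peaks within a list only. The strongest points are the Cadm4 start peak in the Plaur window (44.9 in SNA) and the Flrt3 start peak (39.4 in SNA), and every point of L1cam lies below 5.

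Ligands, partners and family members of the receptors, 55 genes in 5 lists, were counted in the same way. They ran from 3.21 kb (Vtn) to 1020 kb (Robo1) and were not matched to all genes by span in any assay. Longer windows can hold more peaks, and the part of span in the differences from all genes was not tested. In H3K27ac 33 of the 55 had more peaks in SNA than in Sham and 9 fewer (60.0% and 16.4%, against 43.9% and 12.7% of all genes), and the median difference was 2, against 0 over all genes. Against Lam, DCA had more in 5 and fewer in 38 (9.09% and 69.1%, against 12.1% and 38.9%). Lam, again without axotomy, had more than Sham in 35 and fewer in 4 (63.6% and 7.27%, against 41.6% and 11.1%). The part of axotomy in these differences was not tested. Nfkb1, an NF-kappaB subunit downstream of Tnfrsf12a, had 8 H3K27ac peaks after Sham, 25 after SNA, 16 after Lam and 6 after DCA. Adgrl3, a latrophilin that binds Flrt3, had 5, 35, 19 and 8, and Nfasc, an L1 family member, 4, 29, 21 and 6. Adam10, a protease that cleaves Cd44, had 5, 24, 12 and 8. Itgav, an integrin subunit that binds vitronectin, had 2, 12, 9 and 3. These 5 examples, chosen after their values were seen, had their highest count in SNA and their next highest in Lam. Mrc2, a collagen receptor that binds the urokinase receptor, did not, with 6, 4, 6 and 7.

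H3K9ac peaks of the partners were more in 38 and fewer in 8 after SNA (69.1% and 14.5%, against 38.9% and 11.4% of all genes). They were more in 38 and fewer in 5 after DCA (69.1% and 9.09%, against 47.6% and 8.63%), while Lam against Sham gave 17 and 19 (30.9% and 34.5%, against 25.1% and 23.0%). The median difference was 1 after SNA and 2 after DCA, against 0 over all genes. Ank3, an ankyrin that anchors L1 molecules, had 21 H3K9ac peaks after Sham, 53 after SNA, 27 after Lam and 67 after DCA, and Lrp1, an endocytic receptor that clears urokinase complexes, 14, 26, 9 and 25. Traf2, an adaptor of Tnfrsf12a, had 5, 11, 2 and 13. These 3 examples, also chosen after their values were seen, had more H3K9ac peaks after each axotomy than in its control. In ATAC 31 of the 55 had more and 17 fewer in SNA (56.4% and 30.9%, against 46.8% and 24.1% of all genes). The ATAC counts were 24 and 22 in DCA (43.6% and 40.0%, against 35.1% and 34.7%), and 32 and 18 in Lam against Sham (58.2% and 32.7%, against 41.4% and 29.4%). Where both directions exceed the share of all genes, fewer partners had equal counts. Robo1, a guidance receptor that binds Flrt3, had 71 ATAC peaks after Sham, 28 after SNA, 38 after Lam and 43 after DCA, and Relb, an NF-kappaB subunit, had 14, 5, 8 and 8. Ank2 went the other way, with 122, 159, 139 and 131. In H3K27me3 the counts were 22 and 22 in SNA (40.0% each, against 32.5% and 33.8%), 2 and 39 in DCA (3.64% and 70.9%, against 10.3% and 61.5%), and 25 and 15 in Lam against Sham (45.5% and 27.3%, against 48.3% and 21.3%).

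The genes whose peak counts over the 16 lists were most like those of each member, among genes of a like span, were found by the sum of the absolute differences. For Tnfrsf12a it was Hcfc1r1, with a sum of 1, which shares nearly the whole window, followed by its neighbour Cldn6 (9) and Angptl8 (10). For Flrt3 they were Paip2b and Zfp207 (12 each), for Plaur Dgat2 (17), for L1cam Sycp3 (8), for Cd44 Cep152 (19) and for Chl1 Ccny and Itga1 (27 each). Since Hcfc1r1 had 4, 9, 6 and 6 ATAC peaks in Sham, SNA, Lam and DCA, counts in this crowded window cannot be assigned to Tnfrsf12a alone.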

How the data were processed

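ATAC-seq and 3 histone marks were measured in lumbar dorsal root ganglia after 4 surgeries, with samples grouped by title. The authors deposited 16 peak lists pooled over replicates, per the labels. The build is mm10, per the submitters' processing notes. The aligner, peak caller and settings are not given in the sources used here. The deposited columns are a score, not used, the fold enrichment over background (a linear ratio), −log10 p and −log10 q, which describe peaks within their own list. ATAC intervals repeated for several summits were collapsed to the strongest.

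Peaks overlapping a gene body or 10 kb on either side by at least 1 bp were counted (Python 3.11.15, pandas 2.3.3, NumPy 2.4.6, SciPy 1.17.1, matplotlib 3.10.9). Gene spans, starts and sequences came from RefSeq GRCm38.p6, whose tables give no exons, so peaks inside genes are not split into exonic and intronic. Depth per sample is unknown. Summit and background reads were recovered for the 12 narrow lists from the fold, taken as (reads + 1)/(background + 1), and the Poisson p, which matched within 0.003 for 100% of 3000 peaks checked per list. The strongest peaks were left out of that check. Summit reads of a member peak are given only where that peak itself matched within 0.003. The scale factor was 1 except for H3K9ac (0.315, 0.400, 0.610 and 0.918 after Sham, SNA, Lam and DCA) and H3K27ac after SNA (0.759), and reads and backgrounds are given before scaling. Counting and recovery were tested on simulated data.

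The genes, partner lists and rules were chosen with earlier results of these data known. The named peaks are those within 1 kb of a start and the strongest in an axotomy list with no peak in its control, with others added after their values were seen. Partners were named, at most 4 a list, where counts differed by 3 or more. With 1 list per group no test between surgeries was possible. Alternatives changed the flank, the q limit, the list size, the counting of summits and the overlap rule. Leaving out peaks at neighbours' starts and keeping only peaks on an ATAC peak were added after seeing the data.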

Additional observations from a re-analysis of the deposited data

Results flagged for a closer look

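At 3 pairs of gene and mark the 2 injuries differed from their controls in opposite directions by several peaks, and the difference between the injuries was not tested. How many of all genes met the same rule was not counted. Flrt3 had 3 more H3K9ac peaks in SNA than in Sham and a difference of −4 in DCA against Lam. With lists of equal size these were 3 and −5, and both were 1 when −log10 q had to reach 5. Among genes of a like span, 11.2% gained at least 3 H3K9ac peaks in SNA and 0.292% lost at least 4 in DCA. Chl1 had 7 more H3K27ac peaks in SNA than in Sham and a difference of −5 in DCA against Lam. The Chl1 differences in equal lists were −1 and 0, and with the q limit −2 and 0, so the opposition was not present under either. Of genes with a span like that of Chl1, 26.3% gained at least 7 H3K27ac peaks in SNA and 25.3% lost at least 5 in DCA. Cd44 had 4 more H3K27ac peaks in SNA than in Sham and a difference of −4 in DCA against Lam. The Cd44 differences in equal lists were −1 and −2, and with the q limit both were −3, so both injuries then ran the same way. Of genes with a span like that of Cd44, 26.3% gained at least 4 H3K27ac peaks in SNA and 18.8% lost at least 4 in DCA. The H3K27ac lists as a whole held more peaks in SNA than in Sham and fewer in DCA than in Lam.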

How the results depend on the processing

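Of the shares recomputed for the 6 genes under other settings, 101 stayed within their counting interval, 12 moved outside it and 1, whose interval had excluded 50%, reversed. The 101 include 5 that crossed 50% inside an interval that held 50%. Among these were H3K9ac in SNA (48.1%) and in DCA (40.0%) with lists of equal size, and H3K9ac in DCA 1 kb around the gene ends (46.2%). The others were ATAC in Lam at a −log10 q of at least 5 (46.2%) and H3K27me3 in Lam on an ATAC peak (62.5%). A −log10 q of at least 5 gave 40.0% for H3K27ac in SNA of SNA and Sham (6 of 15 peaks), which reversed it, 20.0% for H3K27ac in DCA and 81.2% for H3K9ac in DCA. This limit need not be equally strict in each list, since q describes peaks within their own list and the scale factors of some lists differed. Lists of equal size gave 55.6% for H3K27ac in SNA. For H3K27me3, 1 kb around the gene ends gave 0.0% for SNA (0 peaks against 3 in Sham) and 0.0% for DCA (0 against 2 in Lam). Peaks on an ATAC peak gave 25.0% for SNA (1 against 3) and 0.0% for DCA (0 against 5). These percentages rest on very few peaks. Under a reciprocal overlap of 50% the percent of peaks absent from the control was 76.0% for H3K9ac in DCA, 83.3% for H3K9ac in Lam, 87.9% for H3K27ac in SNA, 81.2% for H3K27ac in DCA and 100.0% for H3K27me3 in SNA. The cause was not tested. A q of at most 0.05 or a −log10 q of at least 5 left no H3K27me3 peak at the 6 genes and so gave no value. No paired analysis was possible because each list pools its replicates, and leaving out replicates was not run for the same reason. The depth per sample is unknown, so what depth limits was not measured.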
